A study of Mus musculus with 6 samples.

Results

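The genes described here encode enzymes and subunits that attach ubiquitin to proteins, remove it, or degrade the tagged proteins in the proteasome. They were chosen by name in the authors' deposited comparison of siCon- and siH19-transfected myotubes, leaving out Usp18. Symbols were taken that begin with Ube, Usp, Fbxo, Fbxl, Fbxw, Trim, Rnf, Cul, Asb, Klhl, Kbtbd, Herc or Uba followed by a digit. Those beginning with Psm and a letter from a to g, with Otud or with Nedd4 were also taken. The rule found 53 genes, each a feature of its own, among 3019 listed features, of which 2549 carry a gene symbol. Mouse C3H myoblasts, a line that fuses into multinucleated muscle cells in low-serum medium, were transfected 40 h after differentiation was induced and harvested 48 h later. Both groups consisted of cultures of this single line that differed in the siRNA received, either a control siRNA or one against the H19 lncRNA, with 3 libraries each. The libraries were prepared from rRNA-depleted total RNA.

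Every level below is the authors' pooled log2 FPKM, the log2 of a fragment count scaled by transcript length and library size, with 1 value for the 3 libraries of a group. The difference given for a gene is its siH19 value minus its siCon value. Neither library depth nor the spread between libraries is known from these pooled values, so that they are given here without an error or a test across libraries. The authors' own fold changes and q-values for the listed features were not used. Only features called by the authors are listed. No member therefore has an absolute difference below 0.32, and genes without a call were not analysed here. The siRNA target was strongly reduced, with H19 at 11.20 in siCon and 7.50 in siH19 on the log2 FPKM scale, a level 7.69% of that in siCon. Of 19 symbols fixed as myotube markers, 12 are listed (63.2%, against 11.7% of all protein-coding genes), in 11 features with siCon levels from 6.91 to 11.30. All 11 features are higher in siH19, against 60.1% of all listed features with a symbol. Their median difference is 0.76, against 0.41. Myf5, the only one of 7 myoblast and cell cycle markers to be listed, is lower (3.41 and 3.03), and Col1a1 is the only one of 6 fibroblast markers (4.81 and 5.22). None of 3 endothelial or 5 macrophage markers is listed. The part of the higher myotube markers in the results below was not tested, and in such bulk RNA a change in the number of cells of a type cannot be told apart from a change in RNA per cell.

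Ubiquitin is activated by an E1 enzyme, passed to an E2 conjugating enzyme and transferred to a substrate with the help of an E3 ligase. HECT ligases carry the ubiquitin themselves, whereas RING and TRIM ligases bring the E2 and the substrate together. Cullins are scaffolds of large ligases whose substrates are bound by exchangeable receptors, namely F-box proteins on CUL1, BTB-Kelch proteins on CUL3, and ASB proteins on CUL5. Deubiquitinases reverse the reaction, and the proteasome, made of a proteolytic core and a regulatory particle that recognizes and unfolds the substrate, completes it. In skeletal muscle this system removes myofibrillar proteins, and the ligases atrogin-1 (Fbxo32) and MuRF1 (Trim63) are markers of muscle wasting.

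Of the 53 genes, 38 are higher and 15 lower in siH19. Among all listed features with a symbol, 60.1% are higher, against 71.7% of the members. With a cut-off of 1.5-fold, 14 members (26.4%) are higher and 4 (7.55%) lower. The same cut-off is passed upwards by 30.8% and downwards by 16.3% of all listed features with a symbol. The median absolute difference of the members is 0.46, compared with 0.56 for all listed features with a symbol, and 29 of the 53 differ by less than 0.5. If all differences are lowered by 0.41, the median of the listed features with a symbol, 25 members are higher and 28 lower, a share of 47.2% higher against 49.3% of all listed features with a symbol. Just inside the 1.5-fold cut-off lie Klhl34 (0.60), Trim16 (-0.62) and Rnf11 (0.63), and just outside it Rnf128 (-0.58), Ube2k (0.53) and Psmd7 (0.53).

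**Figure D1:**
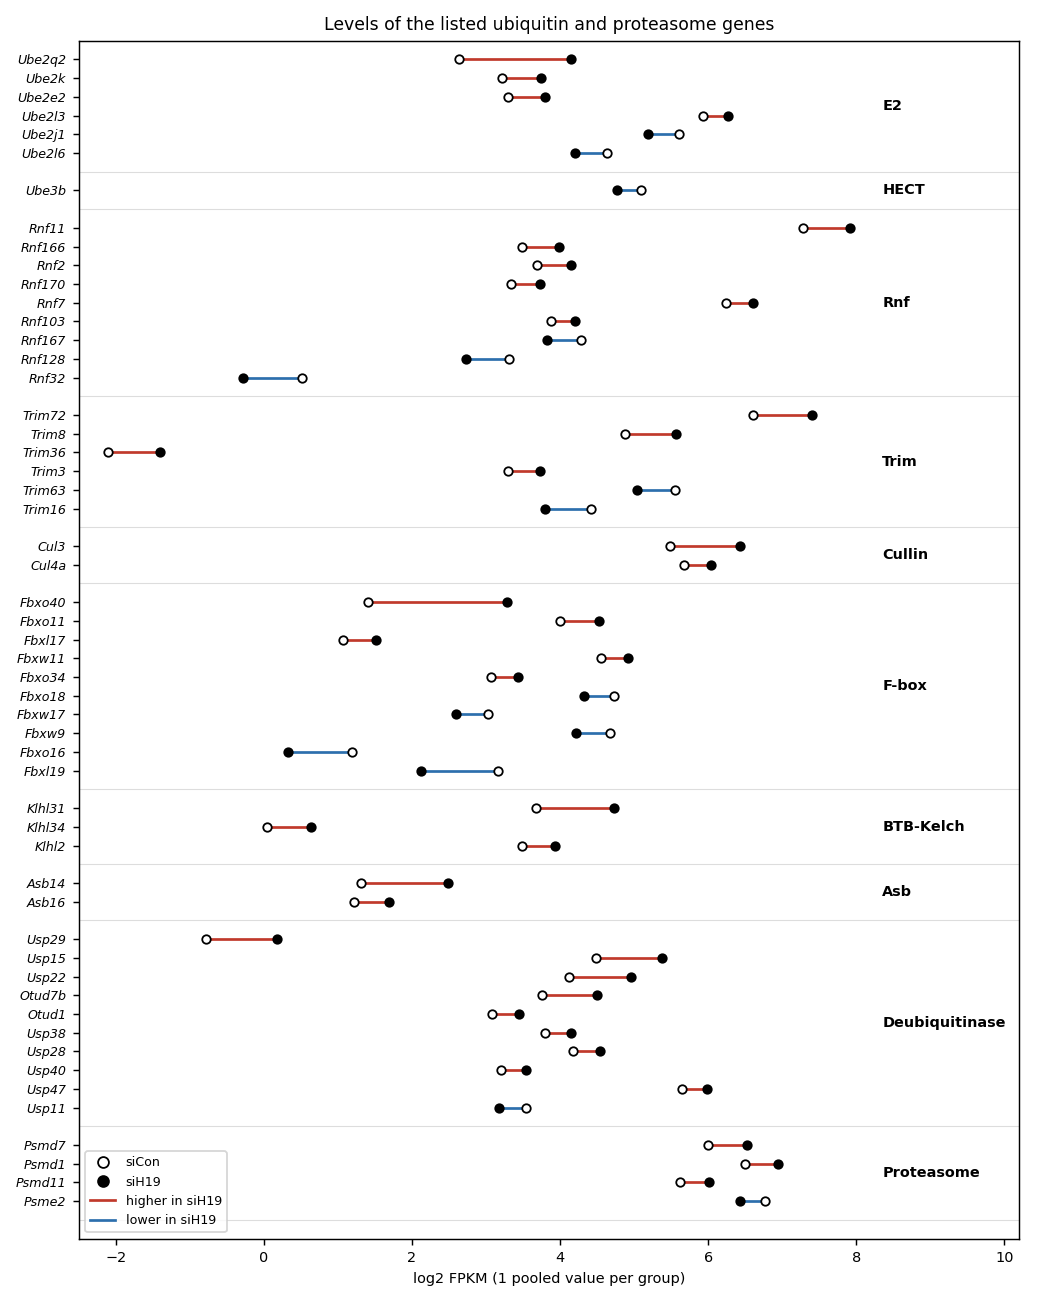
Pooled log2 FPKM (horizontal axis) of the 53 listed ubiquitin and proteasome genes in siCon (open circles) and siH19 (filled circles), 1 value per group, ordered within each role by the difference. Red lines join values that are higher in siH19 (38 genes) and blue lines those that are lower (15 genes), the longest line belonging to Fbxo40, from 1.40 to 3.28.

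The members span a wide range of levels. In siCon, the log2 FPKM extends from -2.10 for Trim36 to 7.28 for Rnf11, with a median of 3.79, and no member reaches the table's lowest value, -10. Rnf11, a small RING protein of endosomal membranes, is the most abundant member in both groups (155 and 241 FPKM). It is followed in siCon by Psme2 and Trim72 and in siH19 by Trim72 and Psmd1. Only Trim36 is below 1 FPKM in both groups, and Usp29 and Rnf32 are below it in 1 of them. At 64 FPKM or more there are 6 members in siCon and 10 in siH19. The members higher in siH19 have a median siCon level of 3.72 and those lower one of 4.42. As no spread is known, neighbours in this order cannot be separated.

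**Figure D2:**
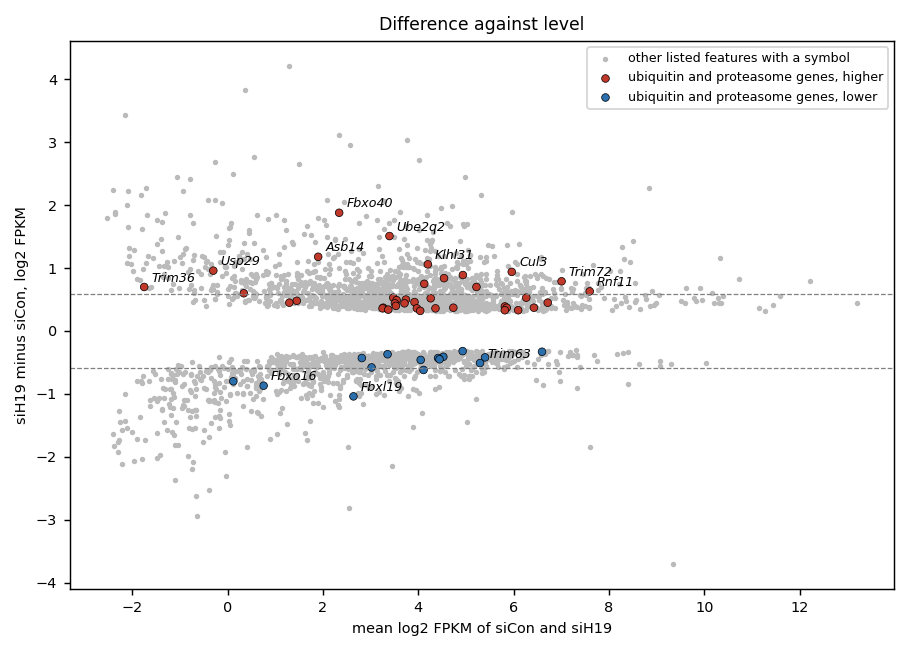
Difference between the groups (siH19 minus siCon, log2 FPKM) against the mean level of both groups for the 53 members (outlined points, red if higher and blue if lower in siH19) and the other listed features with a symbol (grey). Dashed lines mark 1.5-fold. The empty band around 0 arises because only called features are listed, and the members lie within the grey cloud, from -1.04 for Fbxl19 to 1.88 for Fbxo40.

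Ligases that are linked to muscle wasting or restricted to striated muscle were examined first. Of 30 symbols on a list of such ligases and their regulators, 6 are listed, namely Fbxo40, Trim72, Trim63 and Usp28 among the members, and Mul1 and Znrf3 outside the naming rule. Of all protein-coding genes 11.7% are listed. Among the 6, 5 are higher in siH19 (83.3%, against 60.1% of all listed features with a symbol), or 3 of 6 after centring (50.0%, against 49.3%). The 1.5-fold cut-off is passed upwards by 2 of them (33.3%, against 30.8%). Fbxo32, which encodes atrogin-1, is not among the listed features. Fbxo40, a muscle-restricted F-box gene whose product targets the insulin receptor substrate IRS1, stands at a log2 FPKM of 1.40 with siCon and 3.28 with siH19. The difference of 1.88, or 3.68-fold, is the largest of any member. Among the 1533 listed features with a symbol that are higher in siH19, 35 including Fbxo40 have a difference at least this large. Trim72 encodes a muscle TRIM protein that seals membrane lesions and also acts on IRS1. Already abundant in siCon at 6.61, it reaches 7.40 in siH19 (difference 0.79, 1.73-fold). Trim63, in contrast, is lower in siH19, at 5.55 in siCon and 5.04 in siH19, a level 70.2% of that in siCon. The 3 muscle ligase genes thus differ in direction, with Trim63 the lower one and its difference of -0.51 under the 1.5-fold cut-off. Usp28, a nuclear deubiquitinase, is 1.28-fold higher (4.18 and 4.54). Mul1, a ligase of the mitochondrial outer membrane, has log2 FPKM values of 2.54 and 2.89, and Znrf3, which removes Wnt receptors from the cell surface, has values of 1.37 and 1.81.

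These 3 muscle ligase genes lie on separate chromosomes of mm10. The listed locus of Fbxo40 is chr16:36963413-36990557 on the minus strand, that of Trim63 is chr4:134315120-134329629 on the plus strand and that of Trim72 is chr7:128003641-128017787 on the plus strand. The Trim72 locus reaches past the annotated gene, which ends at 128011033 in GENCODE M21, and a stretch of 397 bases is shared with the antisense gene Gm15533. Their upstream sequences are shown because the genes share a tissue but not a direction. Each run covers the 250 bases before the RefSeq start of transcription (GRCm38.p6), read 5′ to 3′ on the gene's strand, and lies at chr16:36990468-36990717 for Fbxo40, chr4:134314870-134315119 for Trim63 and chr7:128004128-128004377 for Trim72, where the RefSeq start lies inside the listed locus. The Trim72 run lies past the GENCODE M21 gene start at 128003949, so it is inside that annotated gene and upstream of the RefSeq start only. Capitals mark the E-box CAGCTG, a sequence bound by myogenic bHLH factors, and the forkhead core GTAAACA, searched on both strands.
Fbxo40: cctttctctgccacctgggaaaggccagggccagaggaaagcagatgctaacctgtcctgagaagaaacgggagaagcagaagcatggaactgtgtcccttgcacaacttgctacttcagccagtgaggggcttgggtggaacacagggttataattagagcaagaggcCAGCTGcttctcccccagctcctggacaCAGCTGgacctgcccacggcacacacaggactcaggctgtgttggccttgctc
Trim63: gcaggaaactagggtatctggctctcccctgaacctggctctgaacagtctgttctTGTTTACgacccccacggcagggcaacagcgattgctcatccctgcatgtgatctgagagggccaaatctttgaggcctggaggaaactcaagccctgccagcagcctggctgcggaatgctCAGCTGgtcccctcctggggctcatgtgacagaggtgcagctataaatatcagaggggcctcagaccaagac
Trim72: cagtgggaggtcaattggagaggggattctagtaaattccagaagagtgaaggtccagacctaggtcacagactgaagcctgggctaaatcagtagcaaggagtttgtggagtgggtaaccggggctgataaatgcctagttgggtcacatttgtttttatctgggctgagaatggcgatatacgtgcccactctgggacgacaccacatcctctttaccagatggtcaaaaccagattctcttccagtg

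Fbxo40 has 2 copies of CAGCTG, beginning 81 and 53 bases before the start. Trim63 has 1 copy at 72 bases, and also 1 match to GTAAACA on the opposite strand, in capitals as its reverse complement, at 194 bases. Trim72 has neither. An upstream sequence was found for 43 of the 53 members. CAGCTG is present in 8 of these 43 (18.6%), compared with 12.7% of the 27025 genes in the table and 12.8% of the 2022 listed genes in it. It was found for 5 of 30 members higher and 3 of 13 members lower in siH19. GTAAACA is present in 3 of the 43 (6.98%) and in 3.06% of all 27025. CANNTG is present in 23 of the 43 (53.5%), a lower share than the 66.1% of all 27025 and the 57.1% of the 2022 listed genes. These matches are descriptions of the letters in this window, not evidence of binding.

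The cullins and their substrate receptors form the largest group, with 17 listed genes. Cul3, the scaffold of BTB ligases (chr1:80265156-80340436, minus strand), reaches 5.49 in siCon and 6.43 in siH19 on the log2 FPKM scale, a 1.92-fold higher level that moves it from place 13 to place 6 among the members. Cul4a, which carries DDB1 and its receptors, differs by 0.37 (5.67 and 6.04), or by -0.04 after centring. The other 6 of the 8 annotated cullin symbols are not listed. All 3 listed BTB-Kelch genes are higher before and after centring, against 60.1% and 49.3% of all listed features with a symbol. After centring, however, Klhl2 differs by only 0.03. Klhl31, a receptor gene expressed in striated muscle, has values of 3.67 and 4.73 (2.08-fold), Klhl34 values of 0.04 and 0.64 (a difference of 0.34 on the log2(FPKM + 1) scale), and Klhl2 values of 3.49 and 3.93. The Klhl31 locus starts at 77618159 on chromosome 9, upstream of the annotated gene start at 77636500. Klhl34 overlaps Cnksr2 on the opposite strand, and whether strand was used in the quantification is not given in the sources used here. Both listed ASB genes are higher from low levels before and after centring, against the same 60.1% and 49.3%, Asb14 from 1.31 to 2.49 (2.27-fold) and Asb16 from 1.21 to 1.69 (1.39-fold, a difference of only 0.07 after centring).

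The F-box genes are divided, with 5 higher and 5 lower (3 and 7 after centring) and a median difference of -0.02. Among all listed features with a symbol 60.1% are higher (49.3% after centring), with a median of 0.41. Besides Fbxo40, the higher ones are Fbxo11, which targets the repressor BCL6 (4.00 and 4.52), Fbxl17 (1.07 and 1.52), Fbxw11, a paralogue of the beta-TrCP gene Btrc (4.55 and 4.92), and Fbxo34 (3.07 and 3.43). Fbxl19, whose product binds unmethylated CpG islands through a CXXC domain, has the lowest difference of all members. Its log2 FPKM values are 3.16 and 2.12, 48.6% of the siCon level (chr7:127743952-127769235, plus strand). Fbxo16 is at 1.19 and 0.32, 54.7% of the siCon level, with a difference of -0.55 on the log2(FPKM + 1) scale. The other lower genes differ less, with Fbxw9 at 4.67 and 4.22, Fbxw17 at 3.03 and 2.60, and Fbxo18, named Fbh1 in GENCODE and encoding a DNA helicase, at 4.73 and 4.32.

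**Figure D3:**
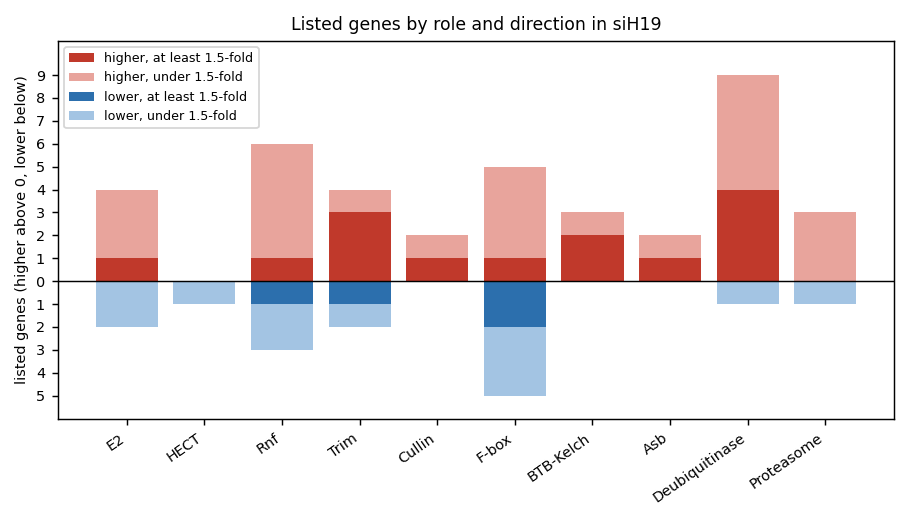
Number of listed genes in each role (vertical axis), with genes higher in siH19 above 0 and genes lower below it. Dark parts are at least 1.5-fold and pale parts less. Before centring, F-box genes are evenly divided (5 and 5) and 9 of 10 deubiquitinase genes are higher, against 60.1% of all listed features with a symbol. After centring on these features, 3 of 10 F-box and 4 of 10 deubiquitinase genes are higher, against 49.3% of the features.

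Among 10 deubiquitinase genes, 9 are higher in siH19 and 4 pass 1.5-fold (40.0%, against 30.8% of all listed features with a symbol). With differences centred on these features, however, 4 are higher and 6 lower, against 49.3% of the features higher. Their median difference of 0.36 is below the 0.41 of all listed features with a symbol, of which 60.1% are higher. Usp15, which acts on TGF-beta signalling proteins, has log2 FPKM values of 4.49 and 5.38 (1.85-fold). Usp22, the histone deubiquitinase of the SAGA co-activator complex, has 4.12 and 4.96 (1.79-fold). Otud7b, which is selective for chains joined at lysine 11 of ubiquitin, has 3.75 and 4.50 (1.68-fold). Usp29 has the largest difference of the group, 0.96, at levels of -0.78 and 0.18, near 1 FPKM. On the log2(FPKM + 1) scale, which damps low levels, its difference is 0.43 and those of Usp15, Usp22 and Otud7b are larger (0.86, 0.80 and 0.71). Usp29 belongs to an imprinted domain with Peg3, and its locus (chr7:6730647-6976662) begins just after that of Peg3, which ends at 6730419. Peg3 is higher in siH19 (5.48 and 5.87) and Zim1, also in that domain, is lower (3.51 and 3.06), both named after their values were seen. A stretch of 2526 bases of the longest Usp29 transcript is shared with the antisense gene Zim3, so that reads could be assigned to either. The remaining higher genes, Usp47, Usp38, Usp28, Usp40 and Otud1, differ by 0.33 to 0.37. Usp11 is the only lower one (3.54 and 3.17).

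The RING ligases of the Rnf series comprise 6 higher and 3 lower genes (3 and 6 after centring), against 60.1% higher (49.3%) among all listed features with a symbol. Rnf11 has values of 7.28 and 7.91 (1.55-fold) and is the only one past 1.5-fold upwards. Rnf7, a RING subunit of cullin ligases, has 6.24 and 6.61, and Rnf2, a catalytic subunit of Polycomb repressive complex 1, has 3.69 and 4.15. Rnf166, Rnf170 and Rnf103 differ by 0.50, 0.40 and 0.32, respectively. Rnf32 is lower by the largest amount, at 0.52 and -0.28, followed by Rnf128, a ligase of the endosomal pathway (3.31 and 2.73), an order that turns on the log2(FPKM + 1) scale (-0.42 and -0.52), and by Rnf167, a lysosomal membrane ligase (4.28 and 3.82). Of the TRIM genes not yet described, Trim8 has values of 4.87 and 5.57, Trim36 values of -2.10 and -1.40 (a difference of 0.16 on the log2(FPKM + 1) scale), and Trim3 values of 3.29 and 3.73. Trim16, which takes part in the removal of damaged lysosomes, is lower (4.42 and 3.80, 65.1% of the siCon level). Ube3b, the single HECT gene among the members, is lower at 5.09 and 4.77, whereas of 3 further listed HECT genes Smurf1 and Smurf2 are higher by 0.45 each and Hace1 is lower (-0.46).

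No E1 gene is listed, and of 6 listed E2 genes 4 are higher (3 after centring), near the 60.1% (49.3%) of all listed features with a symbol. Ube2q2 has the second largest difference among all members, 1.51, from log2 FPKM 2.64 with siCon to 4.15 with siH19 (2.85-fold, chr9:55149291-55207557, plus strand). Its transcript shares 1137 bases at 95% identity or more with the processed pseudogene Gm4895, between which reads could be divided. Ube2k, the E2 that extends chains joined at lysine 48, has values of 3.21 and 3.74, Ube2e2 of 3.30 and 3.79, and Ube2l3, the E2 of parkin and HECT ligases, of 5.93 and 6.26. Ube2j1, a conjugating enzyme of the endoplasmic reticulum, is lower (5.61 and 5.19). Ube2l6, the conjugating enzyme for the ubiquitin-like protein ISG15, is lower as well (4.63 and 4.20, 74.2% of the siCon level).

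Of 50 annotated Psm genes, 4 are listed (8.0%, against 11.7% of all protein-coding genes). None of the 19 genes for core particle subunits and none of the 7 Psmc symbols, which include the ATPases of the regulatory particle, is among them, and the list does not show whether these were tested. The 3 listed non-ATPase subunits of the regulatory particle are higher by similar amounts, where 60.1% of all listed features with a symbol are higher. Psmd1, a large scaffold subunit, has values of 6.49 and 6.94 (1.37-fold), Psmd7, the partner of the proteasomal deubiquitinase, 6.00 and 6.53 (1.44-fold), and Psmd11, 5.62 and 6.01 (1.31-fold). Psme2, which encodes a subunit of the interferon-inducible proteasome activator, is lower (6.76 and 6.43, 79.6% of the siCon level). It shares 794 bases at 95% identity or more with the copy Psme2b, and Psmd11 shares 1501 bases with A730017L22Rik. None of the 4 genes passes 1.5-fold, against 30.8% upwards and 16.3% downwards of all listed features with a symbol. After centring, 2 of the 4 are higher and 2 lower (49.3% of these features are higher), with Psmd1 at 0.04 and Psmd11 at -0.02.

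Set against the annotation, 52 of 471 protein-coding genes of GENCODE M21 whose current symbol fits the name rule are listed (11.0%), and Fbxo18 is the further member under an older symbol. For all 21924 protein-coding genes the share is 11.7%. By role it is 25.0% of cullin genes, 16.2% of E2, 15.9% of deubiquitinase, 11.7% of F-box, 11.1% of ASB, 10.6% of Rnf, 8.82% of TRIM, 8.33% of HECT and U-box, 8.0% of Psm and 6.67% of BTB-Kelch genes, and 0 of 7 E1 genes. Genes that were not expressed or not tested count as not listed here.

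The rest of the pathway was followed through a list of 223 symbols outside the name rule. Of these, 42 are listed (18.8%, against 11.7% of all protein-coding genes), 36 higher and 6 lower in siH19 (85.7% higher, against 60.1% of all listed features with a symbol), or 24 higher and 17 lower after centring (57.1% higher, against 49.3%). The median difference is 0.44, against 0.41 for all listed features with a symbol. At 1.5-fold 13 are higher (31.0%, against 30.8% of all listed features with a symbol) and 0 lower (against 16.3%). Dcaf6 and Dcaf11, receptors of CUL4 ligases, have log2 FPKM values of 4.48 and 5.57 and of 3.13 and 4.21, and are the 2 of 11 Dcaf symbols to be listed. Of 18 symbols for further BTB adaptors of CUL3, 5 are listed, against 11.7% of all protein-coding genes. Of the 5, 4 are higher, among them Kctd9 (4.02 and 4.94), against 60.1% of all listed features with a symbol, 2 of them past 1.5-fold (30.8%), and Kctd13 is lower (-0.46). Dcun1d2, a cofactor of cullin neddylation, has 3.63 and 4.47, and the SOCS-box gene Socs6 has 3.88 and 4.83. The shuttle factors Ubqln1 (4.74 and 5.51) and Ubqln2 (2.71 and 3.35), which carry ubiquitinated proteins to the proteasome, are both higher. Also past 1.5-fold are Stambp (difference 0.98), Anapc5 (0.80), Tnfaip3 (0.75), Zswim8 (0.66) and Btrc (0.60).

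**Figure D4:**
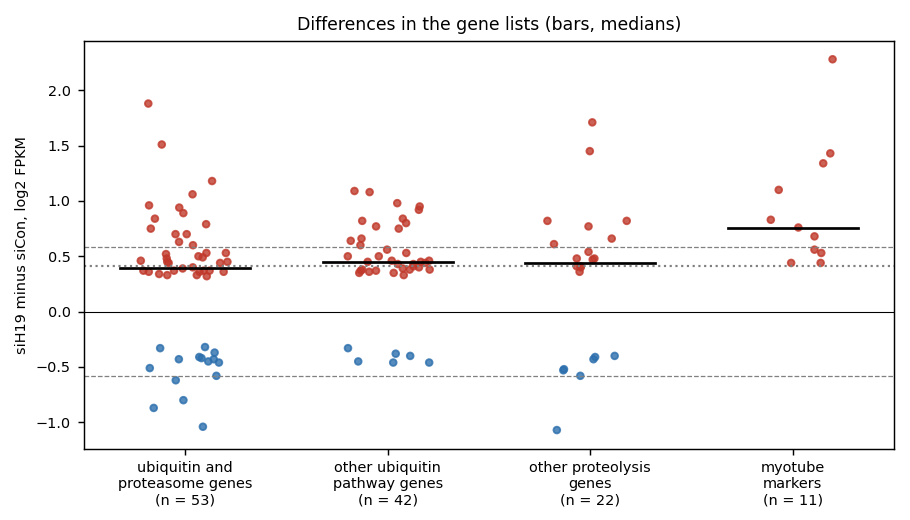
Differences (siH19 minus siCon, log2 FPKM) of the 53 members, of 42 other ubiquitin pathway genes, of 22 other proteolysis genes and of 11 myotube marker features, with black bars for medians of 0.39, 0.44, 0.44 and 0.76. The dotted line is the median of all listed features with a symbol (0.41), and dashed lines mark 1.5-fold. The first 3 medians lie close to the dotted line and that of the myotube markers above it.

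Other routes of proteolysis were listed for comparison, comprising calpains, cathepsins, caspases, autophagy genes and metalloproteinases with their inhibitors and regulators. Of 97 symbols 22 are listed (22.7%, against 11.7% of all protein-coding genes), 15 higher and 7 lower (68.2% higher, against 60.1% of all listed features with a symbol), or 11 higher and 9 lower after centring (50.0% higher, against 49.3%). At 1.5-fold 7 are higher (31.8%, against 30.8%) and 1 lower (4.55%, against 16.3%). The muscle calpain gene Capn3 has log2 FPKM values of 2.52 and 4.23 (3.27-fold), close in size to Fbxo40. Ctsc (-0.70 and 0.75), Ulk1, a kinase that starts autophagy (2.74 and 3.56), Adam10 (3.98 and 4.80), the lysosomal membrane gene Lamp2 (6.67 and 7.33) and Timp3 (5.44 and 6.05) are also past 1.5-fold. Ctsh, encoding a lysosomal cathepsin, is the only one past 1.5-fold downwards (2.08 and 1.01).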

How the data were processed

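The 3 siCon and 3 siH19 RNA-seq libraries were made with a stranded total RNA kit and sequenced from both ends by the authors. Per the submitters' processing notes, reads were aligned to mm10 by TopHat2 2.0.7 in the TopHat app 1.0.0, and groups were compared by Cuffdiff 2.1.1. The gene annotation and any use of strand in counting are not given in the sources used here. The authors deposited log2 FPKM values, 1 per group and feature with 2 decimals, for called features only. Further columns hold their fold changes and q-values and were not used.

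Differences were computed as siH19 minus siCon and are exact to 0.01 on the log2 scale. No values per library were analysed here, so that depth, replicate error and tests are lacking. Transfections were made in triplicate, according to the study's methods. Listed starts count from 0 and are printed counting from 1, since the listed start equals the annotated start minus 1 for 484 of 2328 features annotated once, and the annotated start for 65.

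The members, gene lists and roles were chosen with earlier results of these data known. Named genes are members past 1.5-fold, listed muscle atrophy ligases, in each role the most abundant member in siCon and the largest difference in each direction, the 3 members on either side of the cut-off, H19, and genes of the other lists past 1.5-fold. Further members and genes are named as parts of complete groups after their values were seen. Some genes of the other lists that the rule names are not reported here.

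All 53 members were matched to GENCODE M21 (GRCm38), and 1 through an older symbol. The longest transcript of each was compared with all transcripts by blastn 2.17.0, and 13 members share 200 bases or more at 95% identity with another gene. Scripts ran in Python 3.11.15 with pandas 2.3.3, numpy 2.4.6 and matplotlib 3.10.9, and the counting was tested on simulated data. Alternatives were other cut-offs, filters on level, a pseudocount of 1, centring and single-symbol features.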

Additional observations from a re-analysis of the deposited data

How the results depend on the processing

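With a lower cut-off of 0.322 and a higher one of 1 on the log2 scale in place of 1.5-fold (0.585), 37 (69.8%) and 4 (7.55%) members are higher, against 59.6% and 9.73% of all listed features with a symbol, and 14 (26.4%) and 1 (1.89%) lower, against 39.3% and 5.34%. At 1.5-fold the members number 14 and 4. A mean log2 FPKM of at least 1 leaves 2 lower members past 1.5-fold (4.17%, against 9.83% of features), and so does the log2(FPKM + 1) scale (3.77%, against 6.94%), which shrinks differences of low genes by construction. Centring on the listed features with a symbol lowers every difference by 0.41 and gives 4 higher (7.55%, against 9.73%) and 15 lower members (28.3%, against 39.9%) past 1.5-fold, and 25 higher and 28 lower of any size. Of the 53 members it reverses 13, Rnf170 to -0.01, Psmd11 to -0.02, Cul4a, Fbxw11, Otud1 and Rnf7 to -0.04, Fbxo34, Usp28 and Usp38 to -0.05, Usp40 to -0.07, Ube2l3 and Usp47 to -0.08 and Rnf103 to -0.09, and the log2(FPKM + 1) scale reverses 0. Since only called features are listed, 0.41 is not an estimate of a shift of all genes. Every other count over all members stayed within 1.5 times of its main value under the filters on level, the log2(FPKM + 1) scale and the restriction to single-symbol features. This does not cover counts by role. On the log2(FPKM + 1) scale 1 of 3 BTB-Kelch genes passes 1.5-fold, in place of 2. Of 9 Rnf genes 1 passes it, in place of 1 higher and 1 lower. No paired analysis was made because only 1 pooled value per group was used, and for the same reason no library was left out in turn.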

Other observations

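The direction of the listed features varied with their level. Below a mean log2 FPKM of 2, 6 of 8 members are higher in siH19, against 47.7% of 685 other listed features with a symbol. From 2 to 4 it is 13 of 17 members against 59.4% of 859 features, from 4 to 6 it is 13 of 21 against 66.5% of 728, and above that 6 of 7 against 77.7% of 224. The 2 members whose products belong to interferon-inducible ISG15 conjugation and proteasome activation, Ube2l6 and Psme2, are both lower in siH19 (differences of -0.43 and -0.33) and were set side by side after their values were seen.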
